A study of Homo sapiens with 4 samples.

Results

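The genes described here code for the membrane skeleton of the red cell, the band 3 and Rh protein complexes anchored to it, and the channels, transporters and surface proteins that carry blood group antigens. The 42 genes were taken by symbol from a table of 35606 genes, of which 29376 have a symbol, and each of the 42 was found. They fall into 13 genes of the spectrin-actin skeleton, 9 of the band 3 and Rh complexes, 8 channels and transporters, and 12 other blood group carriers and surface proteins. They were listed by function and not by a threshold on a measured value, though with earlier results of these data known. The study compared K562, a human chronic myeloid leukaemia line with erythroid features, carrying the fusion of JAZF1 to the Polycomb subunit SUZ12 with mock K562 cells, using 2 poly(A)-selected, directional RNA-seq libraries in each group. The labels give the group by the name of the fusion or as mock, and how the fusion was introduced is not given in the sources used here. The source field of every sample reads uterus, although the cell line is named as K562. The labels do not say that the 2 libraries of a group came from separate cultures, so each p-value measures the spread between these libraries, which may be technical.

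The membrane of a red cell is held by a hexagonal net of spectrin tetramers joined at short actin filaments, where the product of EPB41, the adducins, dematin, tropomyosin and tropomodulin meet. Ankyrin ties this net to band 3, the anion exchanger made from SLC4A1, and the Rh proteins, the Rh-associated glycoprotein, CD47 and ICAM4 sit in the same complexes. Glycophorins, channels and adhesion proteins complete the surface and carry most of the blood group antigens. Erythroid precursors build up many of these proteins, but not all, as they mature, and K562 cells are known to make embryonic and fetal globin.

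The 4 libraries held between 17260936 and 24423028 estimated counts. Levels are given as counts per 1000000 counts of the library (CPM). JAZF1 stood at 33.3 and 29.9 CPM in the JAZF1-SUZ12 libraries and at 0.587 and 1.27 CPM in mock, and SUZ12 at 275 and 269.5 against 136 and 131 CPM, so both partners were higher in the libraries labelled with the fusion. The 8 erythroid markers summed to 13174 and 13025 CPM in JAZF1-SUZ12 and to 11393 and 11040.0 CPM in mock. Of the 8, 5 passed the test described below as higher, where 13.3% of all genes tested did. GATA1 and KLF1, which encode erythroid transcription factors, differed by 0.043 and 0.016 on the log2 scale and did not pass. Of the 6 megakaryocyte markers, GP9, PF4 and PPBP were at 0 in every library, and the list summed to 49.9 and 50.8 against 49.1 and 46.5 CPM. Myeloid markers summed to 23.8 and 22.9 against 34.9 and 30.4 CPM, nearly all of it LYZ, and lymphoid markers to 4.17 and 6.43 against 5.67 and 5.21 CPM. Epithelial markers summed to 214 and 211 against 203 and 195 CPM. Endometrial stroma markers summed to 29.9 and 28.5 against 11.6 and 11.6 CPM, with LUM at 0 throughout and COL1A1 at 21.4 and 21.3 against 5.18 and 6.39 CPM. Most of that sum in JAZF1-SUZ12 was thus COL1A1. Of these 8 markers only 3 could be tested: 1 passed as higher, and the fitted change was above 0 in 2 and below 0 in 1. The part of any marker list in the results for the membrane genes was not tested. In bulk RNA, fewer cells of a type and less RNA per cell cannot be told apart.

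Of the 42 membrane genes, 40 had enough counts to be tested with edgeR's quasi-likelihood test among 14750 genes, and a gene is said to pass, or to be called, at a Benjamini-Hochberg adjusted p under 0.05. In JAZF1-SUZ12 cells 18 of the 40 (45.0%) were higher, where 13.3% of all genes tested were higher. Only 3 of the 40 (7.5%) were lower, against 11.4% of all genes, and 19 did not pass. In either direction, 24.7% of all genes passed. When the fit was limited to the 11826 genes averaging 50 counts or more, 19 of the 38 membrane genes among them were higher and 1 was lower, beside 14.6% and 11.8% of all genes in that fit. The median log2 fold change of the 40 genes was 0.14, against 0.0032 over all genes tested, and 13 of the 18 higher genes rose by less than 1.5-fold. SLC4A1, ABCG2 and CD44 rose at least 2-fold, and BCAM and SEMA7A by between 1.5-fold and 2-fold, so 5 of the 40 rose at least 1.5-fold, where 7.66% of all genes did.

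**Figure D1:**
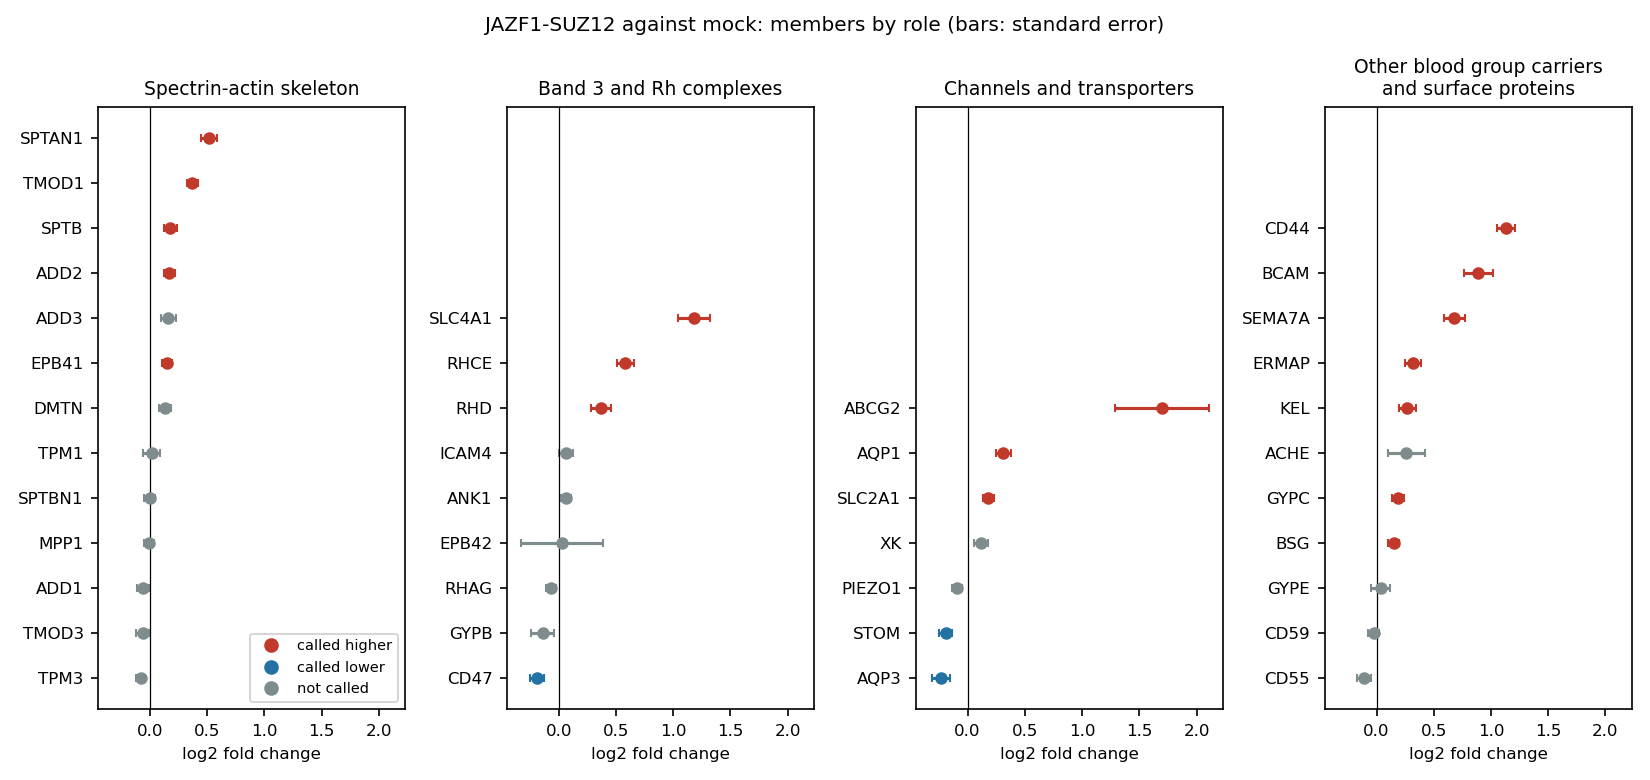
Fitted log2 fold change, JAZF1-SUZ12 over mock (horizontal axis), for each of the 40 tested membrane genes, in 4 panels by role, with bars for the standard error of the fit. Points for the 18 genes called higher lie to the right of 0 and those for CD47, AQP3 and STOM to the left, and most of the points lie within 0.5 of 0.

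The groups of 2 libraries did not overlap for any of the 21 genes that passed. The same libraries gave those calls, so this is a description and no separate evidence. Over the 40 tested genes, both JAZF1-SUZ12 libraries were above both mock libraries in 25, below them in 8 and overlapped with them in 7. Over all genes tested the groups were separated upwards in 33.8% and downwards in 27.2%. DESeq2 called the same 18 genes higher, where it called 9.19% of all genes higher. It called none of CD47, AQP3 and STOM lower, where it called 7.13% of all genes lower. Under every alternative that tested them, 11 genes were higher: SPTAN1, TMOD1, SLC4A1, RHCE, RHD, AQP1, ABCG2, CD44, BCAM, ERMAP and SEMA7A. None of the 3 genes called lower passed under every alternative.

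**Figure D2:**
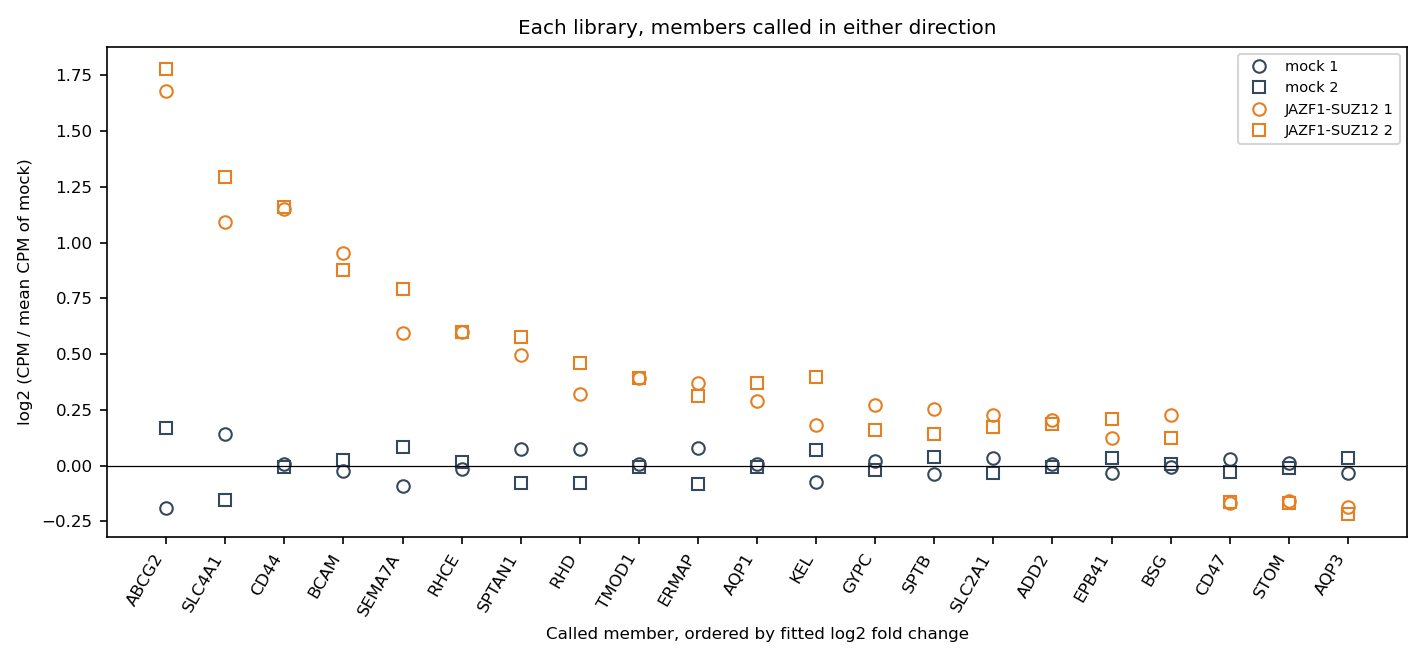
Level of the 21 called genes in each library, as the log2 ratio of its CPM to the mean CPM of mock (vertical axis), ordered by fitted log2 fold change. The 2 JAZF1-SUZ12 libraries lie on one side of the 2 mock libraries for each gene, and the distance is largest for ABCG2, SLC4A1 and CD44.

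In the spectrin-actin skeleton, 5 of 13 genes (38.5%) rose, none passed as lower, and the median log2 fold change was 0.13. Over all genes tested, 13.3% were higher and 11.4% lower. SPTAN1, which encodes the alpha spectrin of non-erythroid cells, stood at 58.6 and 62.0 CPM in JAZF1-SUZ12 and at 43.7 and 39.3 CPM in mock. Its log2 fold change was 0.52 (SE 0.069, edgeR adjusted p = 5.26e-05). TMOD1, the tropomodulin that caps the pointed ends of actin filaments in red cells, stood at 196 and 196 CPM against 149.7 and 148 CPM. It rose by 0.37 on the log2 scale (SE 0.048, edgeR adjusted p = 3.52e-05). Both groups of TMOD1 values were tight, with the libraries of a group within 2 CPM of each other.

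SPTB, EPB41 and ADD2 rose by smaller amounts. SPTB, which encodes erythroid beta spectrin, stood at 203 and 188 CPM against 166 and 175 CPM, a log2 fold change of 0.18 (SE 0.055, edgeR adjusted p = 0.0273). Without JAZF1-SUZ12 replicate 1 the SPTB value was 0.11 and its adjusted p 0.172, and without mock replicate 1 the adjusted p was 0.159. EPB41, whose product strengthens the spectrin-actin junction, stood at 361 and 384 CPM against 324 and 339.6 CPM, with a log2 fold change of 0.15 (SE 0.046, edgeR adjusted p = 0.0273). That call was lost without JAZF1-SUZ12 replicate 2 (adjusted p = 0.111) and without mock replicate 1 (adjusted p = 0.187). ADD2, the beta adducin of red cells, stood at 195 and 193 CPM against 170.3 and 168 CPM, a log2 fold change of 0.17 (SE 0.048, edgeR adjusted p = 0.0137), and reached 0.0554 without mock replicate 2.

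The 8 remaining skeleton genes did not pass. ADD3, a broadly expressed gamma adducin, stood at 72.8 and 83.0 CPM against 67.6 and 69.8 CPM, with an edgeR adjusted p of 0.0759. DMTN, which encodes the actin-bundling protein dematin, stood at 117 and 118 CPM against 105 and 107 CPM, with an edgeR adjusted p of 0.0937. In both genes the groups were separated, and each passed under some alternatives: ADD3 under the limit of 50 mean counts, with a replicate block and without JAZF1-SUZ12 replicate 1, and DMTN under scaling by total counts and under the limit of 50 mean counts. SPTBN1, the beta spectrin of other cell types, was level between the groups, at 176 and 165 against 168 and 168 CPM, and the fitted value was -0.0026 (SE 0.052). ADD1, TMOD3, TPM1, TPM3 and MPP1 had log2 fold changes between -0.081 and 0.018.

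Among the genes of the band 3 and Rh complexes, 3 of 9 (33.3%) rose, 1 (11.1%) passed as lower, and the median log2 fold change was 0.063. Over all genes tested, 13.3% were higher and 11.4% lower, so the share called lower was near that of all genes. SLC4A1, which makes the anion exchanger band 3 and carries the Diego antigens, rose the most of the 9. Its counts were 292 and 476 in JAZF1-SUZ12 and 179 and 152 in mock, or 16.9 and 19.5 CPM against 8.76 and 7.14 CPM. The log2 fold change was 1.18 (SE 0.14, edgeR adjusted p = 1.30e-05). The genes whose products tether band 3 did not pass: ANK1, which encodes ankyrin, stood at 366 and 352 CPM against 332 and 346 CPM (log2 fold change 0.063, edgeR adjusted p = 0.359), and EPB42, whose product binds band 3 and ankyrin, at 1.80 and 1.64 CPM against 1.42 and 1.88 CPM. For EPB42 the standard error was 0.36 on the log2 scale, so a change of moderate size could not be seen at this depth.

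RHCE and RHD, which carry the C/c and E/e antigens and the D antigen, lie on chromosome 1, RHD at chr1:25272393-25330445 on the plus strand and RHCE at chr1:25362249-25430192 on the minus strand (GRCh38, GENCODE 29). RHCE stood at 39.6 and 39.6 CPM in JAZF1-SUZ12 and at 25.9 and 26.4 CPM in mock, a log2 fold change of 0.58 (SE 0.075, edgeR adjusted p = 3.96e-05). RHD stood at 28.9 and 31.8 CPM against 24.3 and 21.9 CPM, a log2 fold change of 0.37 (SE 0.088, edgeR adjusted p = 0.00533). The transcripts of the pair share much of their sequence. In the principal transcript, 42.3% of the 31-base words of RHCE and 31.6% of those of RHD occur in transcripts of another gene. RHCE shares its words mainly with RHD. An estimated count divides such reads between the genes, so the split between RHD and RHCE is uncertain. The sum of both genes does not depend on the split between them, and stood at 68.5 and 71.4 CPM against 50.2 and 48.3 CPM, a log2 ratio of the means of 0.51. RHD made up 42.2% and 44.5% of that sum in JAZF1-SUZ12 and 48.4% and 45.4% in mock.

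The likeness reaches past the transcripts. The 300-base RefSeq windows around the starts of RHD and RHCE (GRCh38.p14, 250 bases before a start and 50 after) were identical at 298 positions. The stretches shown are the parts of those windows that lie outside annotated exons, 116 bases before the starts and up to 250, with any CCNCNCCC match on either strand in capitals. They are printed because the same bases precede both genes that rose. RHD is from chr1:25272259-25272392 on the plus strand and RHCE from chr1:25420942-25421075 on the minus strand, and all 134 bases are identical.
RHD: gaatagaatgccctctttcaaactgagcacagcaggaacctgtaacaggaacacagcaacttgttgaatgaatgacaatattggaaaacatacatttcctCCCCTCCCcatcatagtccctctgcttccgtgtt
RHCE: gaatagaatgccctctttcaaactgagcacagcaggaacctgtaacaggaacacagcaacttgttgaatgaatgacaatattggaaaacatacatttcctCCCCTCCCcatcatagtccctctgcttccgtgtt

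RHAG, which makes the glycoprotein that the Rh proteins need to reach the surface, did not pass. It stood at 532 and 536 CPM against 563 and 539 CPM (log2 fold change -0.067, edgeR adjusted p = 0.275). GYPB and ICAM4, which carry the S/s and Landsteiner-Wiener antigens, did not pass either: GYPB stood at 16.8 and 17.3 against 17.7 and 19.2 CPM, and ICAM4 at 62.6 and 63.0 against 58.0 and 60.4 CPM. CD47, the signal against phagocytosis that sits in the Rh complex, was called lower, at 53.7 and 54.0 CPM against 61.7 and 59.2 CPM (log2 fold change -0.19, SE 0.062, edgeR adjusted p = 0.0362). That call was lost when any of the 4 libraries was left out, with adjusted p between 0.0585 without JAZF1-SUZ12 replicate 1 and 0.191 without mock replicate 1, and also with DESeq2 (adjusted p = 0.155).

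The channels and transporters moved in both directions, with 3 of the 7 tested genes (42.9%) higher, 2 (28.6%) lower and a median log2 fold change of 0.12. The shares over all genes tested were 13.3% higher and 11.4% lower. SLC2A1, the main glucose transporter of red cells, stood at 212 and 205 CPM against 186 and 177 CPM. Its log2 fold change was 0.18 (SE 0.049, edgeR adjusted p = 0.0152), lost without JAZF1-SUZ12 replicate 1 (0.0579) and without mock replicate 2 (0.0934). AQP1, the water channel that carries the Colton antigens, stood at 49.5 and 52.5 CPM against 40.7 and 40.4 CPM and rose by 0.31 (SE 0.066, edgeR adjusted p = 0.00277). Of the 31-base words of the principal AQP1 transcript, 30.5% are shared with an annotated gene listed as AC004691.2.

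ABCG2, a drug and urate exporter that carries the Junior antigen, had low counts, 37 and 56 in JAZF1-SUZ12 against 12 and 16 in mock. That is 2.14 and 2.29 CPM against 0.587 and 0.751 CPM, a log2 fold change of 1.70 (SE 0.41, edgeR adjusted p = 0.00664). It is the largest fold change among the 40 genes and the one with the widest error. AQP3, which passes water and glycerol and carries the Gill antigen, was called lower at 29.9 and 29.2 CPM against 33.2 and 34.7 CPM (log2 fold change -0.23, SE 0.077, edgeR adjusted p = 0.0424). Without JAZF1-SUZ12 replicate 2, mock replicate 1 or mock replicate 2 the AQP3 adjusted p was 0.218, 0.0779 and 0.199, and by DESeq2 it was 0.211. STOM, the lipid raft protein stomatin, was called lower at 81.3 and 80.7 CPM against 91.5 and 90.1 CPM (log2 fold change -0.19, SE 0.056, edgeR adjusted p = 0.0226). Without those same 3 libraries its adjusted p was 0.113, 0.108 and 0.0720, and by DESeq2 it was 0.0736.

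PIEZO1, the mechanically gated cation channel, stood at 558 and 579 CPM against 579 and 614 CPM, with a log2 fold change of -0.091 and an edgeR adjusted p of 0.147. XK, which carries the Kx antigen and pairs with the Kell protein, stood at 58.8 and 59.3 CPM against 54.8 and 52.6 CPM (log2 fold change 0.12, edgeR adjusted p = 0.192). SLC14A1, the urea transporter behind the Kidd antigens, had 3 and 6 counts in JAZF1-SUZ12 and 0 and 6 in mock, too few to test.

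The other blood group carriers and surface proteins had the largest share of genes that rose. Of 11 tested, 7 (63.6%) were higher, none was lower, and the median log2 fold change was 0.26. The shares over all genes tested were 13.3% higher and 11.4% lower. CD44, the hyaluronan receptor that carries the Indian antigens, stood at 39.7 and 39.9 CPM against 18.0 and 17.8 CPM. It rose by 1.13 on the log2 scale (SE 0.081), and its edgeR adjusted p of 7.74e-08 was the smallest among the 40 genes. BCAM, a laminin receptor that carries the Lutheran antigens, stood at 16.1 and 15.3 CPM against 8.17 and 8.45 CPM, and rose by 0.89 (SE 0.13, edgeR adjusted p = 0.000124). SEMA7A, a semaphorin anchored in the membrane that carries the John Milton Hagen antigen, stood at 33.1 and 38.0 CPM against 20.6 and 23.2 CPM, and rose by 0.68 (SE 0.091, edgeR adjusted p = 5.26e-05).

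The promoter stretches of BCAM and SEMA7A are shown as examples from genes that rose by more than 1.5-fold. The stretches end at the annotated start, BCAM at chr19:44808809-44809058 on the plus strand and SEMA7A at chr15:74433959-74434208 on the minus strand, and hold 24 and 17 CpG pairs. Capitals mark matches to CCNCNCCC on either strand, the motif searched as that of KLF factors. The pattern also takes in GC-rich runs without CACCC, such as GGGCGGGG, and 58.9% of all genes with windows held it. There are 7 matches in BCAM and 6 in SEMA7A, overlaps included. Such counts were not particular to genes that rose: windows of SPTBN1 and ACHE, which did not pass, held up to 9 and 6 matches, the other SEMA7A window held 2, and the CD44 window held 1.
BCAM: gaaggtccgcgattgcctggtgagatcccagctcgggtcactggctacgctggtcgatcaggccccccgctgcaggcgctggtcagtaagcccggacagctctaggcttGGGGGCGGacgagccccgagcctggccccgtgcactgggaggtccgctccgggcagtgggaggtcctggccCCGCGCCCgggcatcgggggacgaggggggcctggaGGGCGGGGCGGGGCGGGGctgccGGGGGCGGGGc
SEMA7A: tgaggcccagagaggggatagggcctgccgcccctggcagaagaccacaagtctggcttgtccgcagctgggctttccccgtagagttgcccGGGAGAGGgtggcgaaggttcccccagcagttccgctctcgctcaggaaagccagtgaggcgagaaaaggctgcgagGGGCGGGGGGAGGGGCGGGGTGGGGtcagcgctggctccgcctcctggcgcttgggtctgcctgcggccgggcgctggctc

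ERMAP, an erythroid protein that carries the Scianna antigens, stood at 68.0 and 65.5 CPM against 55.6 and 49.8 CPM, and rose by 0.32 (SE 0.068, edgeR adjusted p = 0.0027). KEL, the Kell antigen carrier, stood at 63.8 and 74.1 CPM against 53.5 and 59.1 CPM, and rose by 0.27 (SE 0.073, edgeR adjusted p = 0.0118). The KEL call was lost without JAZF1-SUZ12 replicate 2 (adjusted p = 0.153) and without mock replicate 1 (adjusted p = 0.104). GYPC, the glycophorin that joins the skeleton through EPB41 and carries the Gerbich antigens, stood at 181 and 168 CPM against 152 and 148 CPM (log2 fold change 0.19, SE 0.054, edgeR adjusted p = 0.0154). It was lost without JAZF1-SUZ12 replicate 1 (adjusted p = 0.118) and without mock replicate 2 (adjusted p = 0.0631). BSG, the chaperone of lactate transporters that carries the Ok antigen, stood at 565 and 525 CPM against 480.2 and 485 CPM (log2 fold change 0.15, SE 0.047, edgeR adjusted p = 0.0255). The BSG call was lost without JAZF1-SUZ12 replicate 1 (adjusted p = 0.180), mock replicate 1 (0.0925) or mock replicate 2 (0.0536).

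The complement regulators did not pass. CD55, which speeds the decay of the C3 convertase and carries the Cromer antigens, stood at 86.7 and 81.9 CPM against 87.3 and 91.0 CPM, and CD59, which blocks the membrane attack complex, at 179.6 and 177 CPM against 177 and 179.9 CPM. ACHE, the acetylcholinesterase that carries the Yt antigens, stood at 10.8 and 9.05 CPM against 7.39 and 8.83 CPM (log2 fold change 0.26, SE 0.16, edgeR adjusted p = 0.27). ART4, the Dombrock carrier, had between 2 and 4 counts in each library and was not tested. GYPE, a glycophorin gene close to GYPB, stood at 38.8 and 35.0 CPM against 37.1 and 33.4 CPM (log2 fold change 0.038, edgeR adjusted p = 0.782).

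GYPB and GYPE form the other near-identical pair. Of the 31-base words of the principal GYPB transcript, 42.8% occur in another gene, while 3.51% of those of the principal GYPE transcript are shared with GYPB. The summed level of the pair was 55.6 and 52.2 CPM against 54.8 and 52.6 CPM, a log2 ratio of 0.01, whereas that of RHD and RHCE was 0.51. Their promoter stretches are shown beside the Rh pair because they too are near copies, with 239 identical and 5 mismatched bases and 8 gap positions in the alignment, and neither gene passed. GYPB is from chr4:144019346-144019595 and GYPE from chr4:143905564-143905809, both on the minus strand, with AGATAA, the extended GATA motif, in capitals on either strand.
GYPB: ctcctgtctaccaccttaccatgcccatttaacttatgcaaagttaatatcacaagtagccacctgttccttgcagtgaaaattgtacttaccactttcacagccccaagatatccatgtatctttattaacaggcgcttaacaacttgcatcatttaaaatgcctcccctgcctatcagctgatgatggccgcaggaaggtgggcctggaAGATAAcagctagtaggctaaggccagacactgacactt
GYPE: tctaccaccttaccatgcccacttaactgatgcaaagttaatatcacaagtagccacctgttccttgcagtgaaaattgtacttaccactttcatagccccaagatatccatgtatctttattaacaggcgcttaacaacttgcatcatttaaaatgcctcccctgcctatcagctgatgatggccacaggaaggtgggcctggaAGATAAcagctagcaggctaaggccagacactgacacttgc

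Across the 38 membrane genes with RefSeq windows, AGATAA was found in 13 (34.2%), where 12.4% of the 27305 genes with windows held it, and CCNCNCCC in 35 (92.1%), against 58.9%. A gene was counted if any of its windows matched, and the 38 genes had 63 windows, where the 27305 had 35116. By window, AGATAA was found in 25.4% against 10.3%, and CCNCNCCC in 82.5% against 56.2%. ANK1, DMTN, SLC4A1 and XK are not among the 38. Among the 17 genes with windows that rose, 4 held AGATAA (KEL, RHCE, RHD and SPTB) and all 17 held CCNCNCCC. Among the 16 genes with windows that did not pass, 8 held AGATAA and 14 held CCNCNCCC. None of the 3 genes called lower held AGATAA, and all 3 held CCNCNCCC. AGATAA was thus found in fewer of the genes that rose than of those that did not pass. The shares are counts of letters in fixed windows. Short motifs can also occur by base composition, and its part in either share was not tested. The median window held 14 CpG pairs over all genes and 19 over the membrane genes. A window with both motifs was not particular to skeleton genes that rose. MPP1, ADD3, TMOD3 and TPM3, which did not pass, each had such a window, and the other SPTB window held no AGATAA. SPTB is shown as an example of a skeleton gene with both motifs, from chr14:64879908-64880157 on the minus strand. The stretch holds 1 AGATAA match, 3 CCNCNCCC matches and 22 CpG pairs.
SPTB: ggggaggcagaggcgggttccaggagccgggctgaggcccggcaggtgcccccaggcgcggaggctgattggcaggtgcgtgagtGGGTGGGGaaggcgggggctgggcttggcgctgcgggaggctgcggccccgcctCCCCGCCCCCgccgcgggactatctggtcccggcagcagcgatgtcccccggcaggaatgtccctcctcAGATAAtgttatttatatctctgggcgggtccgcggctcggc

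Per length, the most abundant membrane transcripts in mock K562 were those of TPM3, at 369 CPM per kilobase of the principal transcript, RHAG at 282, BSG at 244, MPP1 at 187 and GYPC at 120.4. TPM3 encodes a widely expressed tropomyosin and MPP1 the scaffold p55. Below these lay PIEZO1 at 73.7, EPB41 at 55.6, SLC2A1 at 49.5, CD47 at 47.0 and ICAM4 at 46.3 CPM per kilobase. None of RHAG, TPM3 and MPP1 passed the test, while BSG and GYPC did. SLC4A1 lay near the bottom, at 1.60 CPM per kilobase in mock and 3.67 in JAZF1-SUZ12, where ANK1 stood at 41.1 and EPB42 at 0.668 in mock. The 3 genes that rose at least 2-fold were among the 6 lowest of the 42 in mock: CD44 at 3.12, SLC4A1 at 1.60 and ABCG2 at 0.149 CPM per kilobase. The skeleton genes summed to 2620.1 and 2610.2 CPM in JAZF1-SUZ12 against 2453 and 2469 CPM in mock, and the band 3 and Rh genes to 1119 and 1115 against 1093 and 1081 CPM. The channels and transporters summed to 992 and 1008 against 985 and 1010.2 CPM, and the other carriers to 1282 and 1228 against 1097 and 1105 CPM. The log2 ratio of the mean sums was 0.09, 0.04, 0.0 and 0.19 in that order. The order depends on the transcript taken as the length. With the longest transcript CD47 falls to rank 31 of 42 and TPM3 to rank 4.

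**Figure D3:**
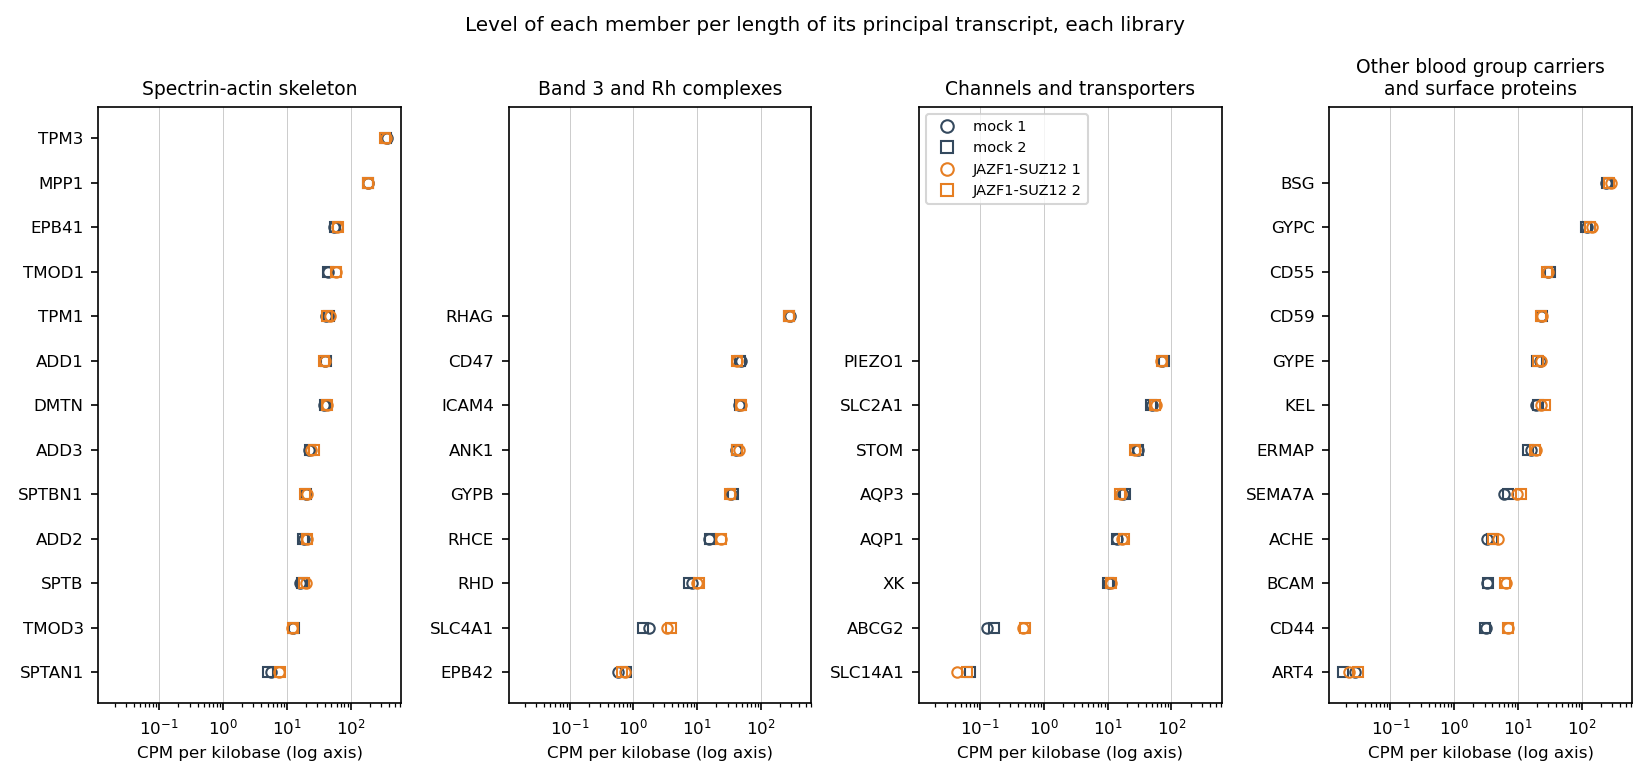
Level of each membrane gene in CPM per kilobase of its principal transcript (horizontal log axis) in each of the 4 libraries, in 4 panels by role. TPM3, RHAG and BSG lie farthest right in their panels, while SLC4A1, EPB42 and ABCG2 lie far to the left, with SLC4A1 at 1.60 in mock and 3.67 in JAZF1-SUZ12 on average.

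**Figure D4:**
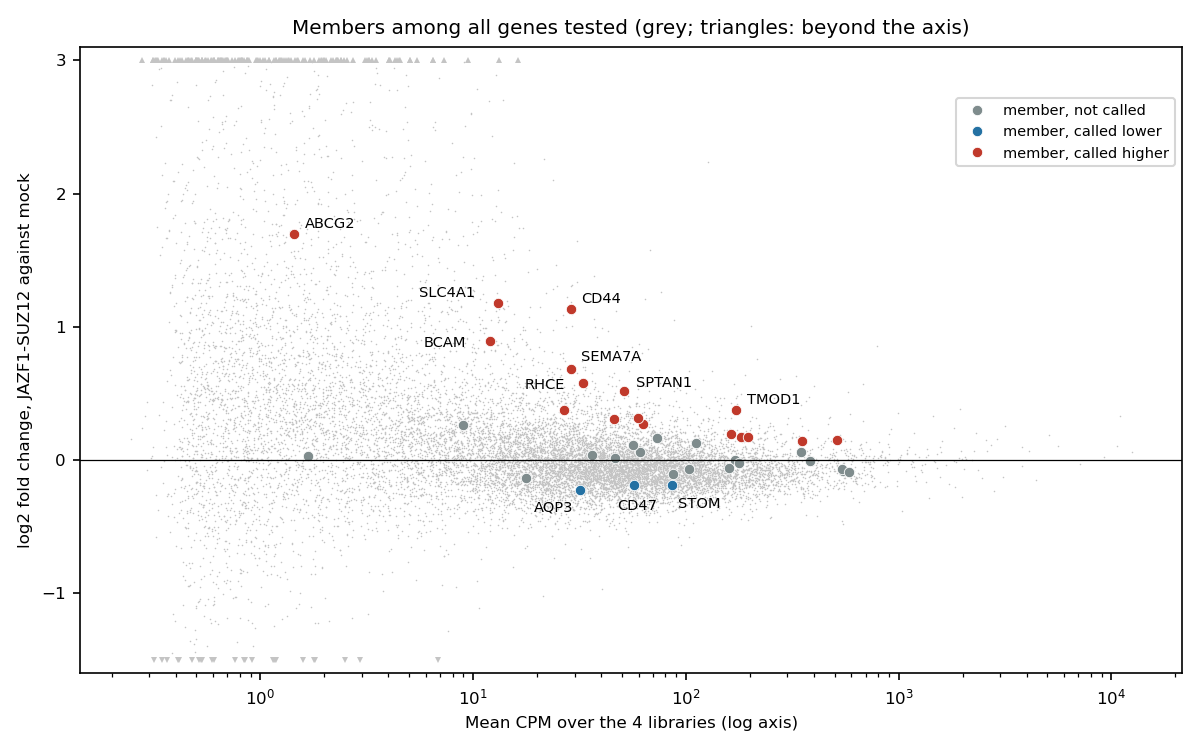
Fitted log2 fold change, JAZF1-SUZ12 over mock (vertical axis), by mean CPM over the 4 libraries (horizontal log axis), with all tested genes in grey and the 40 membrane genes in colour by call. Triangles mark 133 genes above and 25 below the plotted range, and the membrane genes lie mostly at high mean CPM within a narrow band around 0.

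The authors' deposited table gives an adjusted p for 40 of the 42 genes. By the authors' deposited table, at an adjusted p under 0.05, 7 were higher and 1 was lower, where 4.93% and 3.57% of all its genes with an adjusted p were. All 8 also passed here, and the 21 genes called here had the same sign in the authors' deposited table. The authors' deposited table lists log2 fold changes of 1.40 for SLC4A1, 2.31 for ABCG2, 0.77 for CD44, 0.55 for RHCE, 0.65 for SEMA7A, 0.36 for TMOD1 and 0.38 for SLC2A1, and -0.40 for STOM. All the other genes called here missed the threshold in the authors' deposited table. They include genes that passed here under every alternative: BCAM at an adjusted p of 0.0961 in the authors' deposited table, ERMAP at 0.157, RHD at 0.177, AQP1 at 0.627 and SPTAN1 at 0.829.

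Other genes of the red cell membrane, listed apart from the 42, moved in both directions. Of 31, 30 were tested, 6 rose (20.0%) and 7 fell (23.3%), against 13.3% and 11.4% of all genes tested, and the median log2 fold change was -0.05. CA2, the carbonic anhydrase that works with band 3, rose by 2.44 from low counts. EMP3, the carrier of the MAM antigen, fell by 0.37, and ACTB, the actin of the skeleton's short filaments, by 0.27. CD99, the Xg-related antigen, fell by 0.26, a call lost without JAZF1-SUZ12 replicate 2 (edgeR adjusted p = 0.207) and without mock replicate 1 (adjusted p = 0.0690). Of 12 glycosyltransferases that build carbohydrate blood groups, 3 rose (25.0%) and none passed as lower. A4GALT, which makes the P1 and Pk antigens, rose by 3.22 (SE 0.47) from low counts, 72 and 57 in JAZF1-SUZ12 against 8 and 6 in mock. ST3GAL1 rose by 0.87 and GBGT1, the Forssman synthase, by 0.38. In the authors' deposited table A4GALT passed (log2 fold change 3.61). ST3GAL1 (0.26, adjusted p = 0.647) and GBGT1 (0.22, adjusted p = 0.524) did not pass there.

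Genes related to the membrane genes but typical of other cells were listed as well. Of 27, 19 were tested, 8 rose (42.1%) and 1 fell (5.26%), with a median log2 fold change of 0.18. Over all genes tested, 13.3% were higher and 11.4% lower. Among the 40 membrane genes tested, 45.0% were higher and 7.5% lower, with a median of 0.14. A share of rising genes this high was thus not particular to the membrane genes. MPP2, related to MPP1, rose by 1.79, EPB41L1, a relative of EPB41 found in neurons, by 1.25, and TMOD2, the neuronal tropomodulin, by 0.75. SLC4A2, a relative of SLC4A1, fell by 0.13 (edgeR adjusted p = 0.0499), which was lost without JAZF1-SUZ12 replicate 2, mock replicate 1 or mock replicate 2 (adjusted p = 0.256, 0.255 and 0.0872). MPP1 had a log2 fold change of -0.0089, EPB41 one of 0.15, TMOD1 one of 0.37 and SLC4A1 one of 1.18. No difference between a membrane gene and its relative was tested.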

How the data were processed

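RNA was measured in 2 JAZF1-SUZ12 and 2 mock K562 libraries, named by the labels' titles and group descriptions. Per the labels' protocols the libraries were poly(A)-selected and directional, and whether strand was used in counting is not stated. The authors deposited estimated counts per gene, not normalized, of which 29.9% to 33.6% in a library were not whole (tolerance 1e-06). The submitters' processing notes name fastp 0.20.1, FastQC 0.11.7, MultiQC 1.5, kallisto 0.46.2, DESeq2 1.30.1 and hg38, with no role or order; the annotation release is not given in the sources used here.

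The authors also deposited their own comparison, whose columns carry DESeq2's names per the file headers. Its mean signal per gene is a mean of normalized counts, per the file headers. The log2 fold change and its standard error are the authors' values, per the file headers. The score is the authors' test statistic, per the file headers. The p-value and adjusted p-value of each gene were deposited by the authors, and 5356 of its 21251 genes have no adjusted p-value.

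Estimated counts were rounded to whole numbers, genes kept with filterByExpr by group, libraries scaled with TMM, and the groups compared by the two-sided quasi-likelihood test of edgeR 4.0.16 (limma 3.58.1, R 4.3.3) in a model of group alone, adjusted over all genes tested. DESeq2 1.42.0 was an alternative; others changed scaling, filter, threshold or model, or left out a library. CPM is the rounded count over the library total times 1000000. The 2 libraries of a group differed by more than sampling noise (chi-square per degree of freedom 3.73 and 3.49). Positions, transcript lengths and 31-base words came from GENCODE 29 on GRCh38 (principal transcript by APPRIS), and promoter windows from RefSeq on GRCh38.p14, matched by symbol for 38 of 42 genes; the last 30 bases of 56 of the 63 windows were found in a GENCODE transcript of the gene. Described in full were all genes called in either direction and the most abundant per length; other lists name up to 3 genes per direction, and some of those genes are not reported here. The membrane genes, lists and rules were chosen with earlier results of these data known.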

Additional observations from a re-analysis of the deposited data

How the results depend on the processing

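Across alternatives the 21 called membrane genes kept their sign, and 11 of the 18 higher genes but none of the 3 lower ones passed throughout. The count of all genes called, 3643, was 2407 with DESeq2 and 2045 at an adjusted p under 0.01, and the count of membrane genes called higher, 18, was 11 at 0.01. The count called lower, 3, was 1 with scaling by total counts alone, 1 with a limit of 50 mean counts, 0 with DESeq2 and 0 at 0.01. Leaving out each library gave 2455 to 3734 calls over all genes, 14 to 16 membrane genes higher and 0 to 2 lower. The replicate numbers are shared between the groups, but the differences between replicates 1 and 2 did not correlate across the groups (correlation -0.000729 over all genes tested, 0.0346 over genes averaging 50 counts or more). With a replicate block 4061 genes were called, 19 membrane genes higher and 3 lower. The limit of 50 mean counts leaves out ABCG2 and EPB42.

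Signs changed among genes that were not called, and their cause was not tested. With scaling by total counts the log2 fold change was 0.019 for SPTBN1, 0.013 for MPP1 and 0.00039 for CD59, and with the limit of 50 mean counts it was 0.021, 0.015 and 0.0023. Leaving out each library in turn gave -0.06 to 0.057 for SPTBN1, -0.053 to 0.096 for TPM1, -0.15 to 0.26 for EPB42, -0.045 to 0.13 for GYPE, -0.043 to 0.0016 for CD59, -0.0082 to 0.09 for GATA1 and -0.033 to 0.066 for KLF1. With 2 libraries a group, small changes in genes of low count such as EPB42, SLC14A1 and ART4 cannot be resolved.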
